A study of Rattus norvegicus with 28 samples.

Results

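The genes of 7 neuropeptide precursors that act in feeding and stress were followed through rat brain: Npy (ENSRNOG00000009768), Cartpt (ENSRNOG00000017712), Cck (ENSRNOG00000019321), Penk (ENSRNOG00000008943), Gal (ENSRNOG00000015156), Crh (ENSRNOG00000012703) and Trh (ENSRNOG00000011824). They were chosen by Ensembl identifier, not by any measured value. All 7 were found among the 32623 Ensembl gene rows, and all 7 were among the 18134 genes kept for testing. The names come from the list of members, since the files do not pair identifiers with symbols.

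Total RNA was sequenced after depletion of ribosomal RNA in 28 brains of the inbred strains BN-Lx/Cub, a Brown Norway line, and SHR/OlaIpcv, a spontaneously hypertensive line. Each strain gave 12 females, with 4 at pre-estrus, 4 at estrus and 4 at post-estrus, and 2 males. The study asked how sex, the estrous cycle and genotype act together on brain RNA. No age or treatment is given in the sample labels, and the protocol speaks of whole brains of alcohol-naive males, although most samples are labelled female. In homogenised brain, fewer cells of a type and less RNA per cell cannot be told apart. Markers of brain cell types could not be looked up by name, so the tissue label was not checked in that way.

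Neuropeptides are cut from larger precursors in secretory vesicles and released by neurons to act on receptors coupled to G proteins. Neuropeptide Y promotes feeding, while the CART peptides made from Cartpt and cholecystokinin made from Cck reduce it. Penk encodes the enkephalins, opioid peptides abundant in striatal projection neurons, and Gal encodes galanin, a peptide of hypothalamic and brainstem neurons. Crh encodes the corticotropin-releasing hormone that starts the pituitary and adrenal stress response, and Trh encodes thyrotropin-releasing hormone. Cck is made by many cortical and hippocampal neurons, whereas Crh and Trh are known for their hypothalamic neurons.

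Library totals ran from 43410562 to 90667237 expected counts. These are RSEM's estimates, in which reads shared by several genes are split among those genes. Levels below are CPM, counts scaled to the TMM-adjusted library size, unless TPM, which is also divided by transcript length, is named. Each library's median rank correlation with the others was 0.965 to 0.985, lowest in BN-Lx post-estrus replicate 5, BN-Lx estrus replicate 2 and SHR post-estrus replicate 13. The 8 most abundant genes took 46.5% ± 2.48 of the counts (SD, n = 12) in females of BN-Lx and 41.4% ± 3.07 (SD, n = 12) in those of SHR. Libraries carry a suffix b35 or b37 whose meaning is not stated, and it was a term of every main fit. No member was called for that term, in which 10 of 18134 genes were.

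The row listed as Npy did not behave as an abundant brain transcript. It stood at 0 in 24 of 28 libraries. The other 4 held 14.43 expected counts in BN-Lx estrus replicate 2, 14.19 in BN-Lx post-estrus replicate 3, 13.40 in SHR estrus replicate 9 and 70.35 in SHR pre-estrus replicate 11. These fractional counts show reads divided with another row. One row, ENSRNOG00000046449, had fractions that completed them to whole numbers in all 4 libraries within 0.011 of a count, and no other row did so in more than 2. That row held 571 to 1373 expected counts per library. The row listed as Npy held 0.468% of the 24020 reads of both rows together, and 1.87% to 8.85% in the 4 libraries where it was above 0. Its values therefore depend on how shared reads were divided, and no fold change is given for it. Neither the files nor the reference tables name the second row, so it is called here the partner row.

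**Figure D1:**
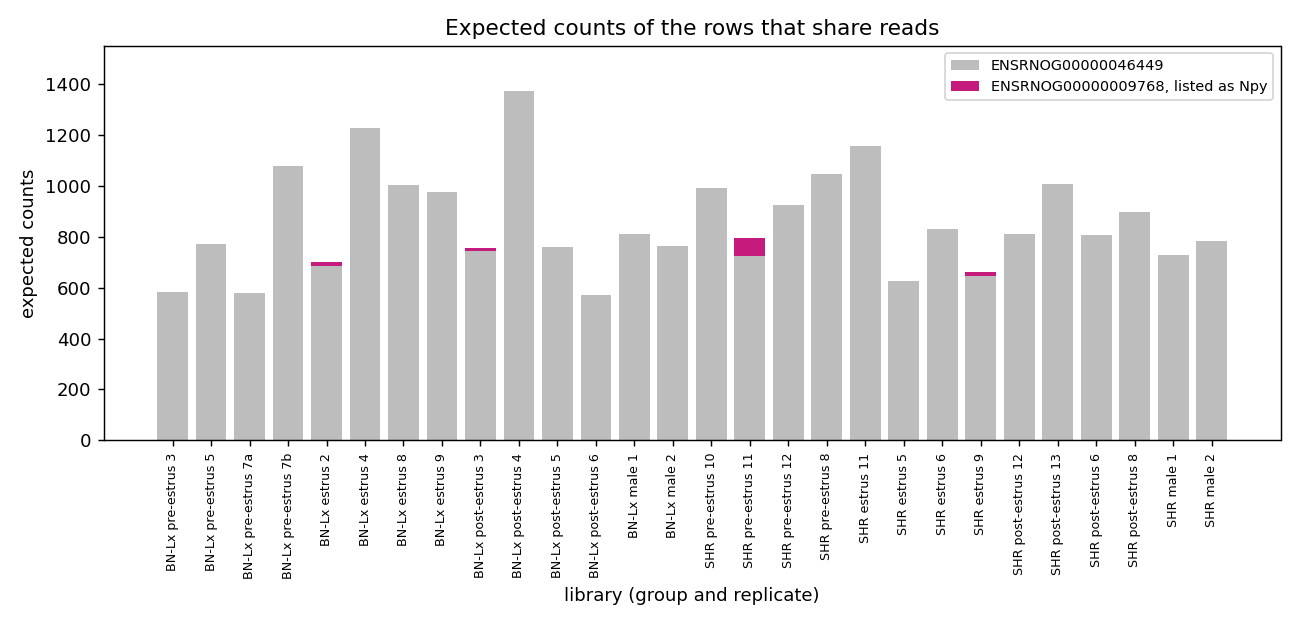
Expected counts (vertical axis) of the partner row (grey) and of the row listed as Npy (magenta, stacked on top) in each of the 28 libraries. Magenta is present in 4 libraries, with 70.35 counts in SHR pre-estrus replicate 11 as the highest value, while the grey bars run from 571 to 1373.

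The partner row was steady. It stood at 14.7 ± 1.84 CPM in BN-Lx females and 14.5 ± 1.29 in SHR females (SD, n = 12 each), and 6 of 12 SHR females lay below the BN-Lx median. Its difference between strains was -0.02 ± 0.07 on the log2 scale (SE), with an adjusted p of 0.934 by edgeR's quasi-likelihood test. The 95% interval ran from -0.16 to 0.13. Its residual SD of log2 CPM, after removal of group means and the suffix term, was 0.16. This was lower than in most genes of like abundance (21.8th percentile of 2647).

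On the TPM scale the other 6 members fell into an ordered series of levels. Penk was highest, with a median of 31.0 TPM over the 28 libraries and a range of 18.2 to 51. Cck followed with a median of 25.4 TPM, from 13.5 to 43.1. Penk exceeded Cck in 19 of 28 libraries, so the order of these neighbours was not fixed. Both lay far above the rest, Cck being higher than Cartpt in 28 of 28 libraries by a median factor of 7.32. Cartpt had a median of 3.58 TPM, Trh 1.83, Gal 1.35 and Crh 0.68. Cartpt exceeded Trh in 24 libraries, Trh exceeded Gal in 26 and Gal exceeded Crh in 27. Among all genes tested, the median TPM ranks were the 94.9th percentile for Penk, the 93.4th for Cck, the 60.1st for Cartpt, the 45.9th for Trh, the 39.4th for Gal and the 29.5th for Crh. Crh and Trh thus stood well below the enkephalin and cholecystokinin precursors. Crh rested on 43 to 186 counts per library and Cck on 892 to 4713. The brain region from which this RNA came was not measured.

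**Figure D2:**
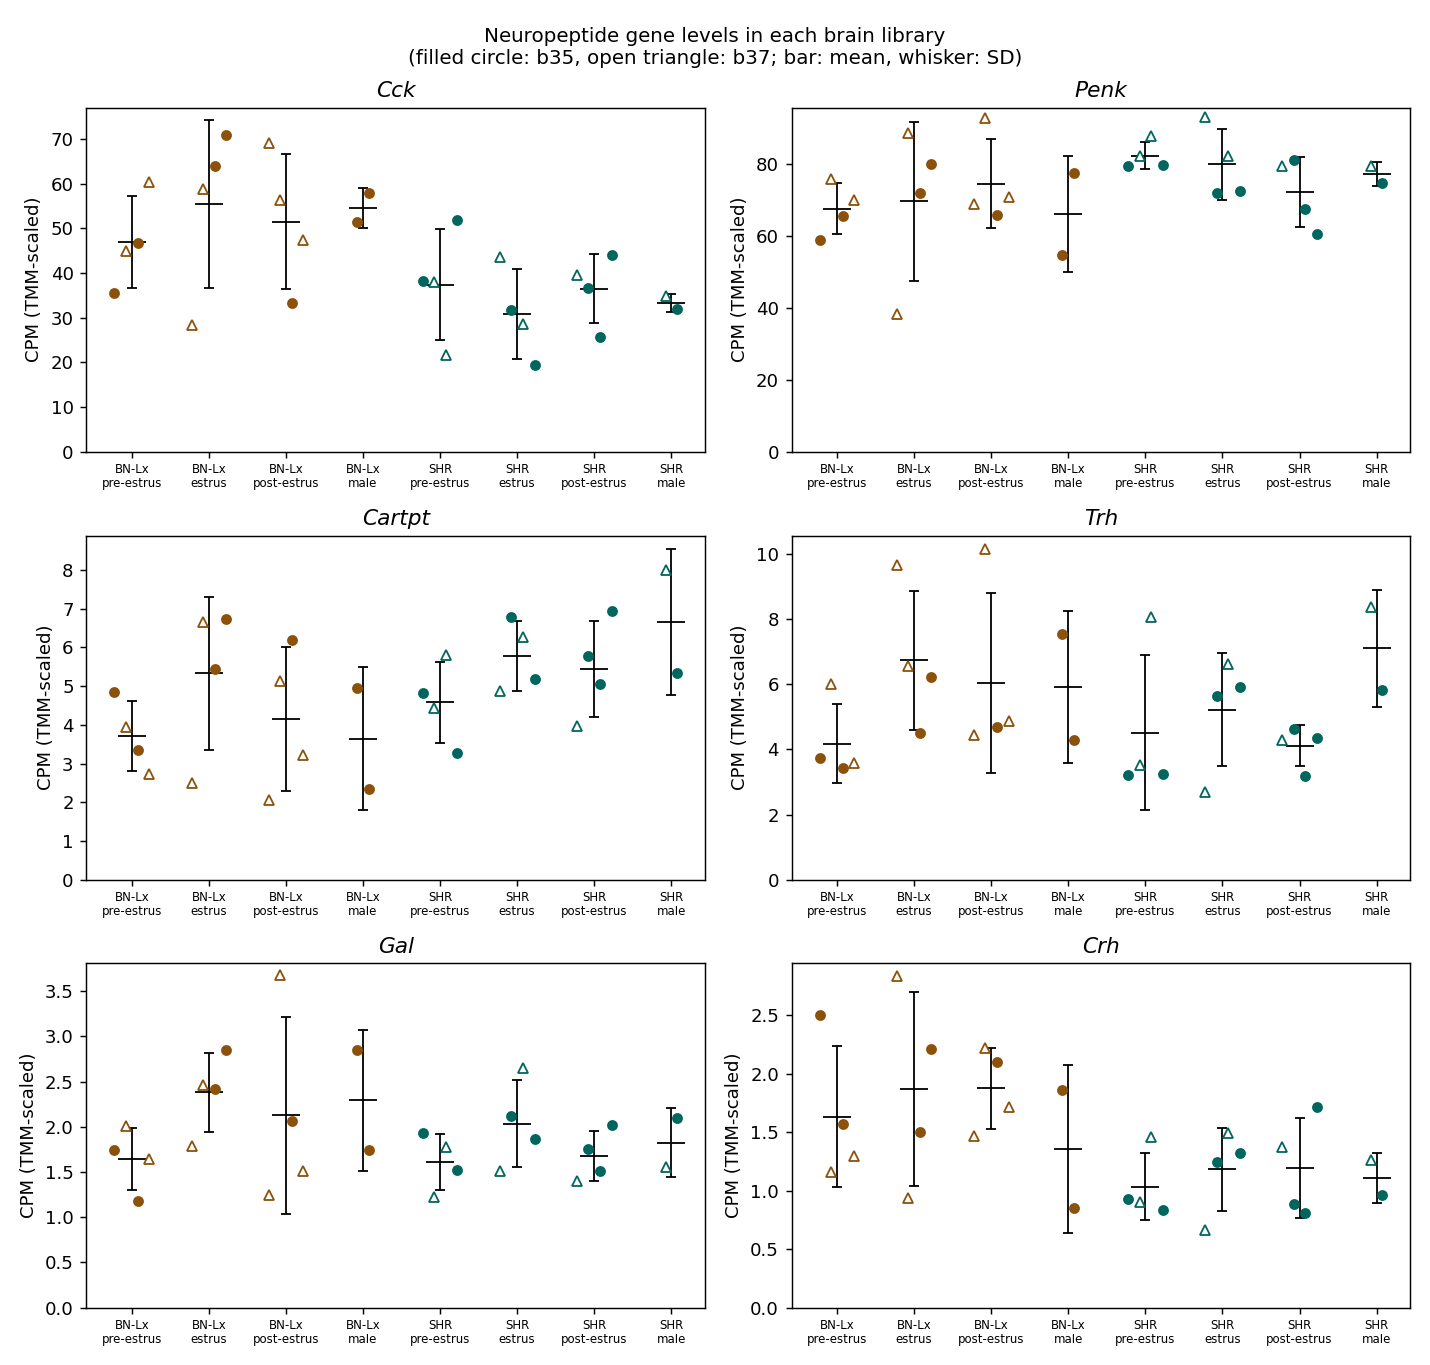
TMM-scaled CPM (vertical axis, each panel with its own scale from 0) of 6 members in every library, by group, with filled circles for b35 and open triangles for b37 libraries, and bars for the mean and SD. For Cck, SHR females lie at 19.3 to 51.8 CPM and BN-Lx females at 28.2 to 70.9. For Crh they lie at 0.67 to 1.71 and at 0.94 to 2.83.

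The strain comparison in females asked which peptide genes differed between the genetic backgrounds irrespective of cycle stage. Cck and Crh were lower in SHR brains, 1.46-fold and 1.58-fold, while Penk, Cartpt, Gal and Trh did not pass the test. Thus 2 of 7 members were called, against 9.51% of all genes tested, and 4.93% in the lower direction. A gene was called at a Benjamini-Hochberg adjusted p under 0.05 over all 18134 genes.

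Cck, the cholecystokinin precursor, read 35.5, 45.0, 46.7 and 60.3 CPM in BN-Lx females at pre-estrus. It read 28.2, 58.7, 63.9 and 70.9 at estrus and 69.1, 56.2, 33.3 and 47.4 at post-estrus. SHR females read 38.2, 38.0, 21.6 and 51.8 CPM at pre-estrus, 43.6, 31.8, 28.6 and 19.3 at estrus, and 39.5, 36.7, 25.8 and 44.1 at post-estrus. The groups overlapped, yet all 12 SHR females lay below the BN-Lx median of 51.82 CPM, and 6 BN-Lx females lay above the highest SHR value. That highest value, SHR pre-estrus replicate 8 at 51.75 CPM, stood just under the BN-Lx median. BN-Lx estrus replicate 2, the lowest BN-Lx library, was also among the 3 libraries that correlated least with the rest. The difference was -0.55 ± 0.17 on the log2 scale (SE, 12 against 12), with a 95% interval of -0.90 to -0.20, or 1.46-fold lower in SHR (edgeR quasi-likelihood adjusted p = 0.0425).

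Crh, the stress-axis releasing hormone, read 2.50, 1.16, 1.57 and 1.29 CPM in BN-Lx females at pre-estrus. It read 2.83, 0.94, 1.5 and 2.21 at estrus and 1.47, 2.22, 2.10 and 1.72 at post-estrus. SHR females read 0.93, 0.91, 1.46 and 0.84 CPM at pre-estrus, 0.67, 1.25, 1.49 and 1.32 at estrus, and 1.37, 0.89, 0.81 and 1.71 at post-estrus. Of 12 SHR females, 11 lay below the BN-Lx median, and 6 BN-Lx females lay above the highest SHR value. The difference was -0.66 ± 0.21 (SE, 12 against 12), with an interval of -1.09 to -0.24, or 1.58-fold lower in SHR (edgeR quasi-likelihood adjusted p = 0.0436).

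Both calls stood close to the threshold. When each library was left out in turn, Cck was called in 7 of 28 fits and Crh in 12 of 28, with log2 differences of -0.63 to -0.46 for Cck and -0.75 to -0.57 for Crh. Where the call was lost, adjusted p ran from 0.051 to 0.0878 for Cck and from 0.0517 to 0.104 for Crh. The 7 libraries whose single removal kept the Cck call were BN-Lx estrus replicate 2, BN-Lx post-estrus replicates 5 and 6, BN-Lx pre-estrus replicate 3, SHR estrus replicate 11, SHR post-estrus replicate 8 and SHR pre-estrus replicate 8. The 12 whose removal kept the Crh call were the 4 males, BN-Lx estrus replicates 4 and 8, BN-Lx post-estrus replicate 3, BN-Lx pre-estrus replicates 5 and 7b, SHR estrus replicate 6, SHR post-estrus replicate 8 and SHR pre-estrus replicate 12. Removal of any other single library lost the call. Without the 3 libraries that correlated least with the rest, Cck was called (-0.67, adjusted p = 0.00629) and Crh was not (-0.52, adjusted p = 0.144).

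Within the suffix classes neither gene was called. The Cck difference was -0.39 in b35 libraries alone and -0.55 in b37 libraries alone (edgeR adjusted p = 0.164 and 0.409). That of Crh was -0.87 and -0.42 (adjusted p = 0.0721 and 0.761). With the share of the 8 most abundant genes as a covariate, the Crh difference was -0.16 (adjusted p = 0.697) and that of Cck was -0.88 (adjusted p = 0.0145). That share moved with strain, as given above, and its part in the result beyond this covariate fit was not tested.

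The other members differed less between the strains. Penk, the enkephalin precursor, ran from 38.1 to 92.8 CPM in BN-Lx females with a median of 70.3, and from 60.5 to 92.9 in SHR females with a median of 79.6. The difference was 0.16 ± 0.10 with an interval of -0.05 to 0.38 (adjusted p = 0.417, edgeR). Cartpt, the CART precursor, ran from 2.06 to 6.75 CPM with a median of 4.39 in BN-Lx and from 3.26 to 6.93 with a median of 5.12 in SHR. Its difference was 0.25 ± 0.18 with an interval of -0.13 to 0.63 (adjusted p = 0.518). For both genes 10 of 12 SHR females lay above the BN-Lx median. On the TPM scale, which moved the median of all genes by 0.28 towards SHR, both passed the test, as given in the closing section.

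Gal, the galanin precursor, ran from 1.18 to 3.67 CPM in BN-Lx females and from 1.22 to 2.65 in SHR females, with medians of 1.90 and 1.77. The difference was -0.22 ± 0.17 (adjusted p = 0.521, edgeR). Its counts were fractional in 22 of 28 libraries, so this row shares reads with other rows and its level is uncertain. Trh ran from 3.42 to 10.2 CPM in BN-Lx and from 2.69 to 8.06 in SHR, with medians of 4.77 and 4.32. Its difference was -0.19 ± 0.19 (adjusted p = 0.649). The intervals, -0.56 to 0.12 for Gal and -0.58 to 0.20 for Trh, leave room for differences as large as those of Cck in the same direction.

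**Figure D3:**
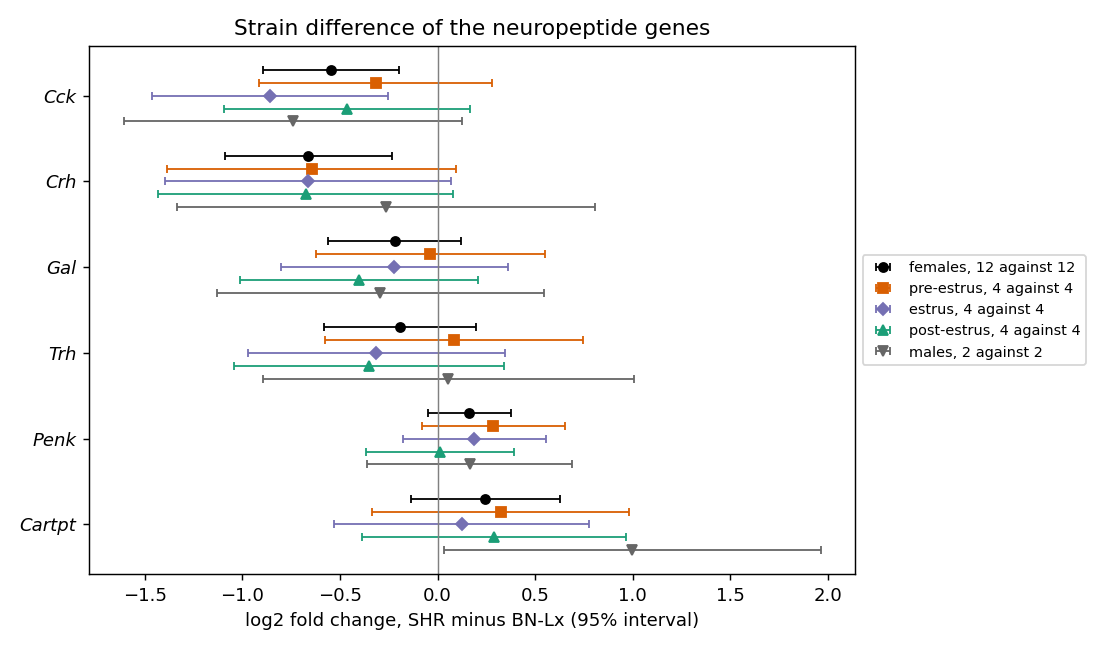
Fitted log2 fold change, SHR minus BN-Lx (horizontal axis), of 6 members with 95% intervals, for all females, each stage and males. The all-female intervals of Cck and Crh lie below 0, at -0.90 to -0.20 and -1.09 to -0.24, and those of the other 4 members span 0.

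By stage, the strain difference of Cck was -0.32 ± 0.29 at pre-estrus, -0.86 ± 0.29 at estrus and -0.46 ± 0.30 at post-estrus. None of these passed the test, with an adjusted p of 0.174 at estrus. Of all genes, 2.24% were called at estrus, 2.5% at pre-estrus and 2.5% at post-estrus. Without BN-Lx estrus replicate 2, the estrus difference of Cck was -1.11 and was called (adjusted p = 0.0276). Crh differed by almost the same amount at each stage, -0.64 ± 0.36, -0.66 ± 0.35 and -0.68 ± 0.36, with no call. The interaction of strain and stage was not called for any member, with an unadjusted p of 0.418 for Cck and 0.998 for Crh (edgeR, 0 of 18134 genes called).

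In males, 2 against 2, no member was called, against 0.8% of genes. Cck read 51.5 and 57.8 CPM in BN-Lx and 34.8 and 32.0 in SHR males. The difference was -0.74 ± 0.42 (unadjusted p = 0.0895, adjusted p = 0.544, edgeR). Cartpt read 4.95 and 2.34 CPM in BN-Lx and 8.00 and 5.33 in SHR males. Its difference was 1.00 ± 0.46 (edgeR unadjusted p = 0.0428, adjusted p = 0.475). Of all genes, 10.1% had an unadjusted p under 0.05 in this comparison. Crh read 1.86 and 0.85 CPM in BN-Lx and 1.26 and 0.96 in SHR males, with a difference of -0.27 ± 0.52. The interaction of strain and sex was called for no member and no gene (edgeR), with 632 genes (3.49%) at an unadjusted p under 0.05.

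Penk was the sole member with more than 1 transcript in the files, seen from a transcript length that varied between libraries. The deposited length of a gene is the mean of its transcripts' lengths weighted by their estimated abundance. A shift shows a change in RSEM's estimate of the mixture of transcripts and not in the amount of RNA. Whether the transcripts themselves differed was not tested. The estimated Penk length was shorter in SHR than in BN-Lx females at each stage. In BN-Lx females the lengths ran from 1365.69 to 1413.86 bases with a median of 1387.27. In SHR females they ran from 1351.70 to 1365.26 bases with a median of 1358.42. The strains did not overlap, though the nearest libraries stood at 1365.26 and 1365.69 bases. Of 4131 genes of varying length that averaged 1 CPM or more, 0.654% did not overlap.

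Mean length was 1358.8 ± 4.39 bases for SHR females (SD, n = 12) and 1386.6 ± 14.8 for BN-Lx females (SD, n = 12), a difference of -27.8 bases (two-sided permutation p = 2e-05, the smallest that 100000 permutations can give). In size, 29.7% of those 4131 genes differed by more bases. The difference was -38.4 bases in b35 libraries and -20.5 in b37 libraries (exact permutation p = 0.00253 in each). It was -35.5 bases at pre-estrus, -27.4 at estrus and -20.4 at post-estrus (exact permutation p = 0.0286 in each, the smallest that 4 against 4 allows). Males read 1353.53 and 1353.81 bases in SHR and 1381.24 and 1391.09 in BN-Lx, where 2 against 2 cannot go below an exact p of 0.333. Within a strain, none of 10 comparisons of stage, sex or suffix passed adjustment. The lowest was b37 minus b35 in BN-Lx, -15.6 bases (exact permutation p = 0.0262, adjusted 0.262).

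**Figure D4:**
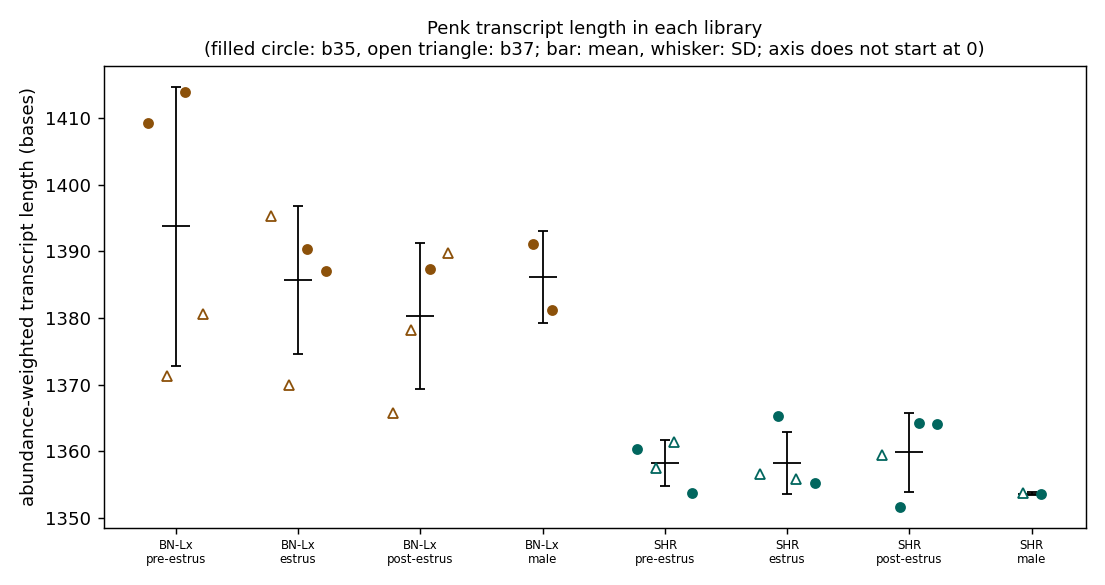
Abundance-weighted transcript length of Penk in bases (vertical axis, which does not start at 0) in every library by group, with filled circles for b35, open triangles for b37, and bars for the mean and SD. All 14 SHR libraries lie between 1351.70 and 1365.26 bases and all 14 BN-Lx libraries between 1365.69 and 1413.86.

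The comparison of the sexes asked whether males differed from females of the same strain, averaged over stages. No member was called in BN-Lx or in SHR, against 0.0331% of genes in each. The lowest unadjusted p was that of Trh in SHR, at 8.38 and 5.83 CPM in the males against 2.69 to 8.06 in the females. It differed by 0.58 ± 0.33 with an interval of -0.10 to 1.26 (unadjusted p = 0.0913, adjusted p = 1, edgeR). In BN-Lx the Trh males, at 7.56 and 4.28 CPM, lay within the female range, with a difference of 0.33 ± 0.35. Crh differed by -0.42 ± 0.41 in BN-Lx and -0.02 ± 0.39 in SHR. With 2 males per strain these intervals are wide, and for Cck they ran from -0.54 to 0.80 in BN-Lx and from -0.71 to 0.58 in SHR.

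The comparison of stages asked whether the peptide genes followed the estrous cycle. No member and no gene was called for a stage difference in either strain by edgeR. At an unadjusted p under 0.05 by edgeR there were 589 genes (3.25%) for BN-Lx and 116 (0.64%) for SHR, with no member among them. With shares this low, the lack of a member says little about the members. By DESeq2, 3 genes for BN-Lx and 5 for SHR were called at an adjusted p under 0.05, again without a member. Among pairwise contrasts Trh in BN-Lx had the lowest unadjusted p. It read 3.73, 5.99, 3.42 and 3.58 CPM at pre-estrus, 9.65, 6.55, 4.51 and 6.22 at estrus, and 4.43, 10.2, 4.67 and 4.87 at post-estrus. The estrus values exceeded the pre-estrus values in part, with overlap, and the difference was 0.68 ± 0.32 (edgeR unadjusted p = 0.0454, adjusted p = 0.858). Of all genes, 3.71% had an unadjusted p under 0.05 in this contrast, and Trh was picked as the lowest of many member contrasts. In SHR the same contrast gave 0.28 ± 0.32.

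Gal and Cartpt had like values in that contrast in BN-Lx, 0.52 ± 0.28 and 0.52 ± 0.32, with unadjusted p of 0.0777 and 0.117. In the same contrast Penk stood at 0.05 ± 0.18 in BN-Lx and -0.05 ± 0.18 in SHR, with intervals of -0.31 to 0.42 and -0.41 to 0.32. For post-estrus minus pre-estrus its intervals were -0.26 to 0.48 and -0.53 to 0.21.

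Animals of a group differed more in 5 of the 6 measured members, all but Gal, than in the median gene of like abundance. The residual SD of log2 CPM was 0.45 for Cck, above 94.9% of 2235 genes of like abundance, whose median was 0.20. For Cartpt it was 0.48 and for Trh 0.48, at the 83.6th and 83.9th percentiles. Penk stood at 0.27 and the 72.8th percentile, Crh at 0.50 and the 62.3rd, and Gal at 0.39 and the 46.3rd. BN-Lx estrus replicate 2 had the lowest Cck, Penk and Cartpt and the highest Crh and Trh of its group.

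Some of this spread was shared between members. How often other pairs of genes vary together as much was not computed, so the sharing is not known to be particular to the members. After group means were removed, the 21 pairs of the 6 members and the partner row were correlated over 28 libraries by permutation within groups. Libraries with more Cartpt also had more Gal, with Pearson's r = 0.67 (permutation p = 0.0041, adjusted 0.039) and Spearman's rho = 0.68 (adjusted p = 0.018). Without the 2 libraries farthest from the median of Cartpt, r was 0.57. It was 0.63 in b35 and 0.68 in b37 libraries, and 0.74 in BN-Lx and 0.44 in SHR. These values within suffix classes and strains were not tested, and the Gal row shares reads.

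Crh and Trh also varied together, with r = 0.57 (permutation p = 0.0056, adjusted 0.039) and rho = 0.59 (adjusted p = 0.034). Without the 2 libraries farthest from the median of Trh, which left BN-Lx estrus replicate 2 in, r was 0.54. It was 0.57 in b35 and 0.69 in b37 libraries, and 0.37 in BN-Lx and 0.81 in SHR. SHR pre-estrus replicate 12 was the highest of its group in both genes. Cck varied with the partner row, with r = 0.70 (permutation p = 0.0014, adjusted 0.029) and rho = 0.66 (adjusted p = 0.018). Without the 2 libraries farthest from the median of Cck, r was 0.62, and it was 0.77 in b35 and 0.67 in b37 libraries.

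The remaining 18 pairs did not pass adjustment. Among them Penk and Crh had r = -0.55 and Penk and Cck r = 0.53 (adjusted p = 0.1 in both). These fell to -0.37 and 0.33 without BN-Lx estrus replicates 2 and 4, so they rested in part on those libraries. All points share depth and composition of their library. The share of the 8 most abundant genes had r = -0.46 with Penk, 0.49 with Crh and -0.42 with Cck (adjusted permutation p = 0.055, 0.081 and 0.086), and its part in the pairs was not tested.

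**Figure D5:**
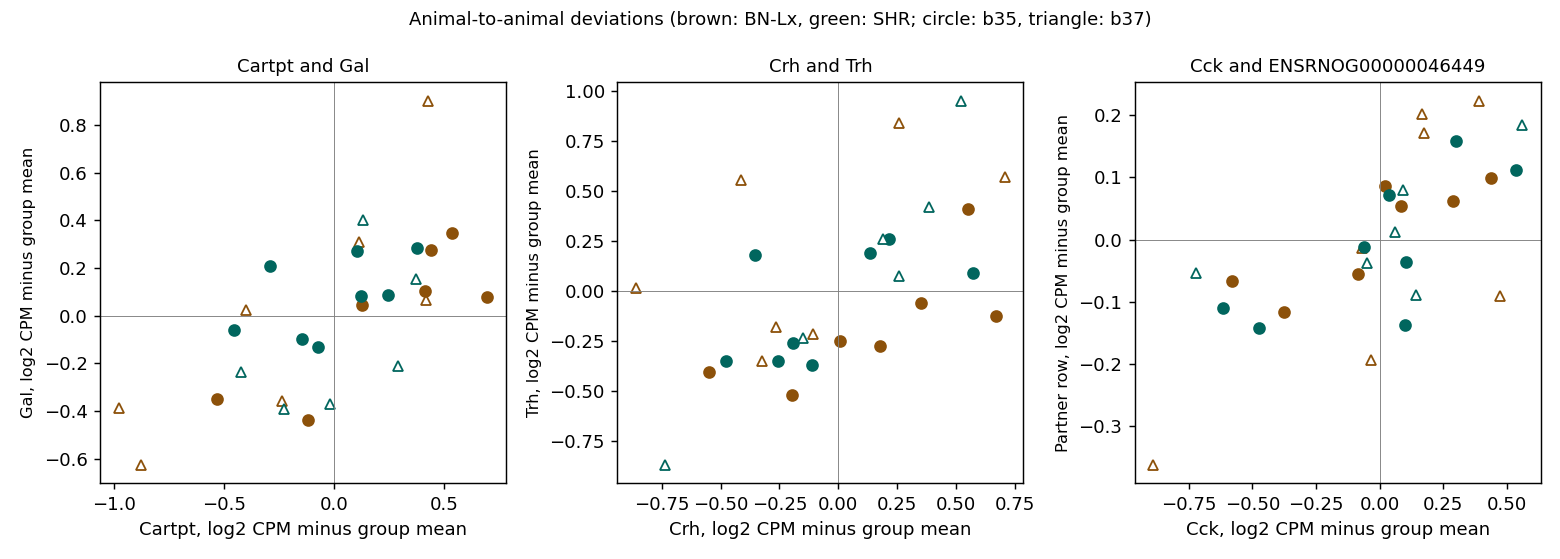
Deviation of each library from its group mean in log2 CPM for Cartpt against Gal, Crh against Trh, and Cck against the partner row, with brown for BN-Lx, green for SHR, circles for b35 and triangles for b37. The points rise together in the 3 panels, with Pearson's r of 0.67, 0.57 and 0.70 over 28 libraries.

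Promoters are shown as a description, and a link to the shared variation of members was not tested. The cyclic AMP response element TGACGTCA, the site of the CREB factors known from several neuropeptide genes, was searched for on both strands. Its shorter core, TGACG, was searched for in the same way. The windows run from 250 bases before to 50 after the start site and come from RefSeq on GRCr8. That set holds 4 of the 7 members by symbol and lacks Cck, Penk and Crh. For the pair of Crh and Trh, only the Trh window could therefore be shown. Capitals mark the motif, and the coordinates stand on the minus strand for all that are printed. The Cartpt window, at chr2:32991186-32991485, holds the full element 142 bases before the start. The Gal window, at chr1:210084523-210084822, holds the core 63 bases before the start. The Trh window, at chr4:126301713-126302012, holds the core on the other strand, where it reads as its reverse complement, 74 bases before the start.
Cartpt promoter: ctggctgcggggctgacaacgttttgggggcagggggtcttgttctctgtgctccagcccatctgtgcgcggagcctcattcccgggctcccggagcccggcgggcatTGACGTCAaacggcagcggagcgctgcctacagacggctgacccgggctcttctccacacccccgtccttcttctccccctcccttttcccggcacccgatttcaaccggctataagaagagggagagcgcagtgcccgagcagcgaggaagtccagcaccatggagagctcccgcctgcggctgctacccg
Gal promoter: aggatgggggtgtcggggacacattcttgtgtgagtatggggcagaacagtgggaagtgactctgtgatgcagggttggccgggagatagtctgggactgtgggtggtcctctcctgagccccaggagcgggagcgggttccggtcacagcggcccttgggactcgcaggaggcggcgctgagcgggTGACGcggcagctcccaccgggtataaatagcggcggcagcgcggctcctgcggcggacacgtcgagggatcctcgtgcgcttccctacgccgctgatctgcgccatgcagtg
Trh promoter: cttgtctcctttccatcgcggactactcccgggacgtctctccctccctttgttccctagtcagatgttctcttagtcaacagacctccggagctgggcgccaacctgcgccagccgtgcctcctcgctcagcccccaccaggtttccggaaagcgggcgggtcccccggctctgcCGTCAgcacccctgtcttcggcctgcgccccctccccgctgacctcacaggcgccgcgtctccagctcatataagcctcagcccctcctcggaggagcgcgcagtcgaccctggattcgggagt

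The full element was present in 1.83% of 33469 promoter windows and the core in 21.2%. The cores counted in Cartpt, 1 on each strand, overlap within its full element. The Npy window held neither. A match describes letters in the window and was not measured as a site.

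The genes most alike in their spread were sought among the 13994 genes averaging 1 CPM or more, as a description over 28 libraries. The nearest to Cck was ENSRNOG00000007346 (r = 0.92) and to Penk ENSRNOG00000028404 (r = 0.92). For Gal the highest r was 0.84, for Trh 0.78, and for Cartpt and Crh 0.76. Cck and Penk thus had closer counterparts than the members of low abundance. The files give no names for these rows.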

How the data were processed

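Per the submitters' processing notes, reads were handled with cutadapt and RSEM. No version, build or annotation is named: these are not given in the sources at hand. The deposited files hold, for each gene, expected counts, TPM as the authors computed it, and an abundance-weighted transcript length in bases. Of all expected counts, 88.2% were whole within 0.004.

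Expected counts were rounded to whole numbers, and 92 spike-in rows were left out. Genes were kept with filterByExpr in edgeR 4.0.16 at a count minimum of 10, libraries were scaled by TMM, and all 28 libraries entered 1 robust quasi-likelihood fit with a term for each of 8 groups and for the suffix b35 or b37 (19 residual degrees of freedom). Within each comparison, p was adjusted over all 18134 genes (Benjamini-Hochberg), and a gene was called under 0.05. Standard errors were derived from the F statistic. Female contrasts weight stages equally. Log2 CPM used a prior count of 2. DESeq2 1.42.0 and limma 3.58.1 were alternatives, and the calculation was tested on simulated data. Transcript lengths were compared by permutation of libraries (scipy 1.17.1, 100000 draws, or exact for small groups).

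The labels number the libraries as biological replicates of whole brain, so each was taken as 1 animal, and p-values measure the spread between these libraries. Many libraries share a number in the sample description, and all SHR pre-estrus libraries carry 201066. That number was not a term of the main fit, so libraries sharing it were treated as independent. Any likeness within a number is not separated from strain, or from stage for SHR pre-estrus. The members were set by identifier, as given at the start. The processing followed an earlier analysis of these data, whose results were known when the comparisons and lists were written. The rule for named genes takes all 7 members in every comparison and, as most alike, the 3 genes per member with the highest r. The lists of receptors, processing enzymes, other peptides and cell type markers matched 0 rows, because none of 47357 rows of the RefSeq table has an Ensembl identifier, and they were not tested.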

Additional observations from a re-analysis of the deposited data

Results flagged for a closer look

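Within each group of 4 females, the highest and the lowest library were compared with the rest by Dixon's ratio, over 48 groups of values, and 5 stood apart. Chance alone gives about 1 in 20 such groups. Trh was highest in BN-Lx post-estrus replicate 4 at 10.16 CPM, with the next library at 4.87. It was highest in BN-Lx pre-estrus replicate 5 at 5.99 CPM, with the next at 3.73. In SHR pre-estrus replicate 12 Trh stood at 8.06 CPM, with the next at 3.52. The same library held the highest Crh of its group, 1.46 CPM, with the next at 0.93. The Penk transcript length of SHR estrus replicate 5 was 1365.26 bases, with the next library at 1356.65, and it was the SHR value nearest to the BN-Lx range.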

How the results depend on the processing

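The strain comparison in females called 2 members, and the count depended on the setting. It was 2 with no suffix term, RLE size factors, DESeq2, the 8 most abundant genes removed, or the read-sharing rows added into 1. It was 1 with limma voom, with the share of the 8 most abundant genes as a covariate, without the 3 libraries that correlated least (Cck in each), and with the compared libraries alone (Crh). It was 0 with no filter on low counts, with b35 or b37 libraries alone, and with the replicate number as a block. Leaving out 1 library gave 0 to 2. It was 2 in 1 of 28 such fits, without SHR post-estrus replicate 8, and lower in the other 27. The replicate numbers did not pair the samples (median correlation -0.17 over 18 pairs, 4 of them over 0.1). For the description number, 15 of 30 pairs across groups were over 0.1, with a median of 0.10 against -0.0045 for other pairs, so not every pair was. In the female strain comparison, the block for the replicate number moved the calls over all genes from 1724 to 150. The covariate moved them to 4569. At estrus the count of members was 0, and 1 (Cck) with limma voom, b35 libraries alone or without the 3 libraries, and 0 to 1 when 1 library was left out. The interaction of strain and stage called 1 (Cck) in b35 libraries alone, where 5585 genes were called. The read-sharing, 3-library and compared-libraries settings were chosen after seeing the data. The other comparisons gave 0 members in every setting run. The cause of each change was not tested. A block for the description number could not be fitted to the strain comparisons, since each number belongs to 1 strain, and b37 libraries alone hold no BN-Lx male. The nearest gene of Cartpt, Cck, Gal, Crh and Trh was the same by Spearman's rho, and that of Penk was another. Leaving out 1 female moved the Penk length difference between -29.7 and -25.3 bases.

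On the TPM scale (pseudocount 0.1) 6092 genes were called, and the median of all genes moved by 0.28. Penk then differed by 0.51 (adjusted p = 0.0081) and Cartpt by 0.56 (0.0171), while Cck stood at -0.26 (0.221) and Crh at -0.32 (0.148), by limma. Relative to that median the differences were 0.22, 0.28, -0.54 and -0.60. With a pseudocount of 1, 5967 genes were called.

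Signs turned in 54 of 1854 values recomputed for single genes, none with an adjusted p under 0.05. In the female strain comparison these were Penk at -0.059 with the covariate, Cartpt at -0.00054 with the replicate block and -0.036 in b35 libraries, Trh at 0.059 and 0.041 and Gal at 0.10 and 0.056 on the TPM scale. By stage, Cck was 0.13 at pre-estrus and 0.096 at post-estrus in b35 libraries, and Crh 0.050 at post-estrus with the covariate. In males, Trh was -0.023 in b35 libraries and -0.042 with the compared libraries alone, and Crh 0.013 with the replicate block. For sex in BN-Lx, the replicate block gave Penk 1.18 and Trh -0.97, the covariate gave Cck -0.0018 and the description number as a block gave Gal -0.24. For sex in SHR, the replicate block gave Penk 1.29, Cck 1.49 and Trh -0.68, the covariate gave Penk 0.085 and Cck 0.11, b35 libraries gave Penk 0.020, b37 libraries gave Cck 0.017, Gal -0.054 and Crh 0.083, limma gave Crh 0.040 and the description number as a block gave Crh 1.01. Trh at estrus against pre-estrus in BN-Lx was -0.17 with the replicate block.

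Leaving out 1 library turned signs over these ranges. In males they were -0.067 to 0.44 for Penk, -0.30 to 0.52 for Trh, -0.60 to 0.11 for Gal and -0.72 to 0.41 for Crh. For sex in BN-Lx they were -0.30 to 0.21 for Penk, -1.004 to 0.076 for Cartpt, -0.14 to 0.69 for Trh, -0.27 to 0.44 for Gal and -1.09 to 0.037 for Crh. For sex in SHR they were -0.046 to 0.00037 for Penk, -0.14 to 0.014 for Cck, -0.095 to 0.77 for Cartpt, -0.15 to 0.22 for Gal and -0.28 to 0.20 for Crh. The partner row ran from -0.050 to 0.0044 between strains. The male groups hold 2 libraries each, and Crh rests on 43 to 186 counts per library, which limits what these comparisons can show.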
